A study of Mus musculus with 2 samples.

Results

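The fibroblast growth factor (FGF) genes on arrays of cultured embryonic mouse ureters were examined. They are 10 genes: the ligands Fgf1, Fgf2, Fgf7, Fgf9, Fgf10 and Fgf18 and the receptors Fgfr1, Fgfr2, Fgfr3 and Fgfr4. Every non-control probe whose gene name in the scanner files is one of these was taken, which gave 19 of the 39429 probes. Of these, 16 were well above background, and each of the 10 genes kept at least 1 probe, among 22316 genes and unnamed features kept in all. The set was selected on the log2 ratios of Fgf18, which were known to be far from 0 on both arrays, so the values of its members in this comparison are given as a description, with no test.

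By the labels, the tested samples are ureters of NMRI wild-type mouse embryos of stage E13.75, cultured on a membrane for 18 h with 10 µg/ml NOGGIN. The controls are ureters of the same strain, genotype and stage, cultured for the same time without NOGGIN. Embryos of both sexes were mixed, whole ureters were used, and labelling started from 200 ng of total RNA, amplified in a single round. NOGGIN is an extracellular antagonist that traps bone morphogenetic proteins (BMPs) before they reach a receptor, so the comparison addresses which transcripts depend on BMP signalling in the ureter. Each of 2 arrays held 1 NOGGIN and 1 control sample: NOGGIN RNA carried the green dye on array 1 and the red dye on array 2.

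FGFs are secreted proteins that bind receptor tyrosine kinases together with heparan sulfate on the cell surface. The receptors activate the RAS and MAP kinase cascade through docking proteins, which induces ETS transcription factors and feedback inhibitors of the same cascade. In organs built from an epithelial tube and a surrounding mesenchyme, ligands such as FGF7 and FGF10 are typically made by mesenchyme and act on the epithelium through a splice form of FGFR2. FGF9 and FGF18 typically act on receptor forms of the mesenchyme. The ureter is such an organ: an epithelium (the urothelium) is surrounded by mesenchyme that forms smooth muscle and connective tissue.

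The direction of all ratios rests on the dye labels, and the sources do not settle it. Each ratio below puts the channel labelled NOGGIN on top and the control channel underneath. By these labels Id1, a transcription regulator induced by BMP signalling, was higher in the channel labelled NOGGIN, at log2 ratios of 2.21 on array 1 and 2.08 on array 2. The authors' deposited table, whose columns are titled NOGGIN against control, lists Id1 at signed folds of -4.65 and -4.53. Were the dyes labelled the wrong way round, all signs below would turn, while the sizes and the relative directions would stay: Fgf18 lay opposite to Id1 on both arrays in either reading.

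Fgf18 was the FGF gene with by far the largest difference. Fgf18 encodes a secreted ligand known for its roles in the growth of cartilage, bone and lung. The brighter of its 2 probes gave normalized log2 channel intensities of 9.32 and 9.18 in the channels labelled NOGGIN, against 11.51 and 11.83 in the channels labelled control (array 1 and array 2). There was no overlap between the groups, and the log2 ratios were -2.19 and -2.66. Their mean was -2.42 ± 0.33 (SD, n = 2 arrays), which is a level 5.36-fold lower in the channels labelled NOGGIN. Fgf18 ranked 4 from the low end of all 22316 features by mean log2 ratio.

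The difference was present in the signals as scanned, before any background correction or normalization. On array 1 the mean signal of the same Fgf18 probe was 767 intensity units in the channel labelled NOGGIN, against 2014 in the channel labelled control, over local backgrounds of 27.3 and 64.6. On array 2 the mean signals were 487 in the channel labelled NOGGIN, against 5155 in the channel labelled control, over backgrounds of 62.6 and 27.0. The channel labelled control was thus brighter in both dye orientations, in red on array 1 and in green on array 2. All 4 spots were well above background in every channel.

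The other Fgf18 probe gave nearly the same result. Its log2 ratios were -2.15 and -2.49, with a mean of -2.32 ± 0.24 (SD, n = 2 arrays). Each probe was printed 4 times per array, and all 16 Fgf18 spots were below 0, from -3.18 to -1.77 with a median of -2.33. Spots measure the spread within an array and are not replicates of the cultures. The 2 probes are not independent either, because they overlap on the transcript. They lie on the minus strand at chr11:33017440-33017499 and chr11:33017474-33017533 (mm9) and share 26 bases at chr11:33017474-33017499, shown here because both measurements of the largest difference rest on them, with the shared bases in capitals.
Fgf18 shared bases: ACGAGGAAACTGCGAGAAACCAAAGT

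In the authors' deposited table Fgf18 was also far from 1, with the opposite sign. The authors' deposited table lists Fgf18 at signed folds of 5.26 and 7.51 for the brighter probe and of 5.45 and 7.56 for the other. Set against the scanner values, the table runs as control over NOGGIN by the dye labels.

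Of the 10 FGF genes, 1 (Fgf18) was at least 1.5-fold different in the same direction on both arrays. Of all 22316 features, 2.19% passed this rule in either direction and 1.25% passed it as lower in the channel labelled NOGGIN. Since the genes were chosen for Fgf18, nothing is read from this count. The channel values of 4 FGF genes (Fgf1, Fgf2, Fgf9 and Fgf18) were lower in both channels labelled NOGGIN than in both channels labelled control, an order that 17.9% of all features showed. Those of 4 others (Fgf7, Fgfr2, Fgfr3 and Fgfr4) were higher without overlap, as were 14.3% of all features. Fgf10 and Fgfr1 overlapped between the groups. The separation of Fgf2 was small and at the edge of detection. On array 2 Fgf2 had 6.70 in the channel labelled NOGGIN, against 6.73 in the channel labelled control.

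**Figure D1:**
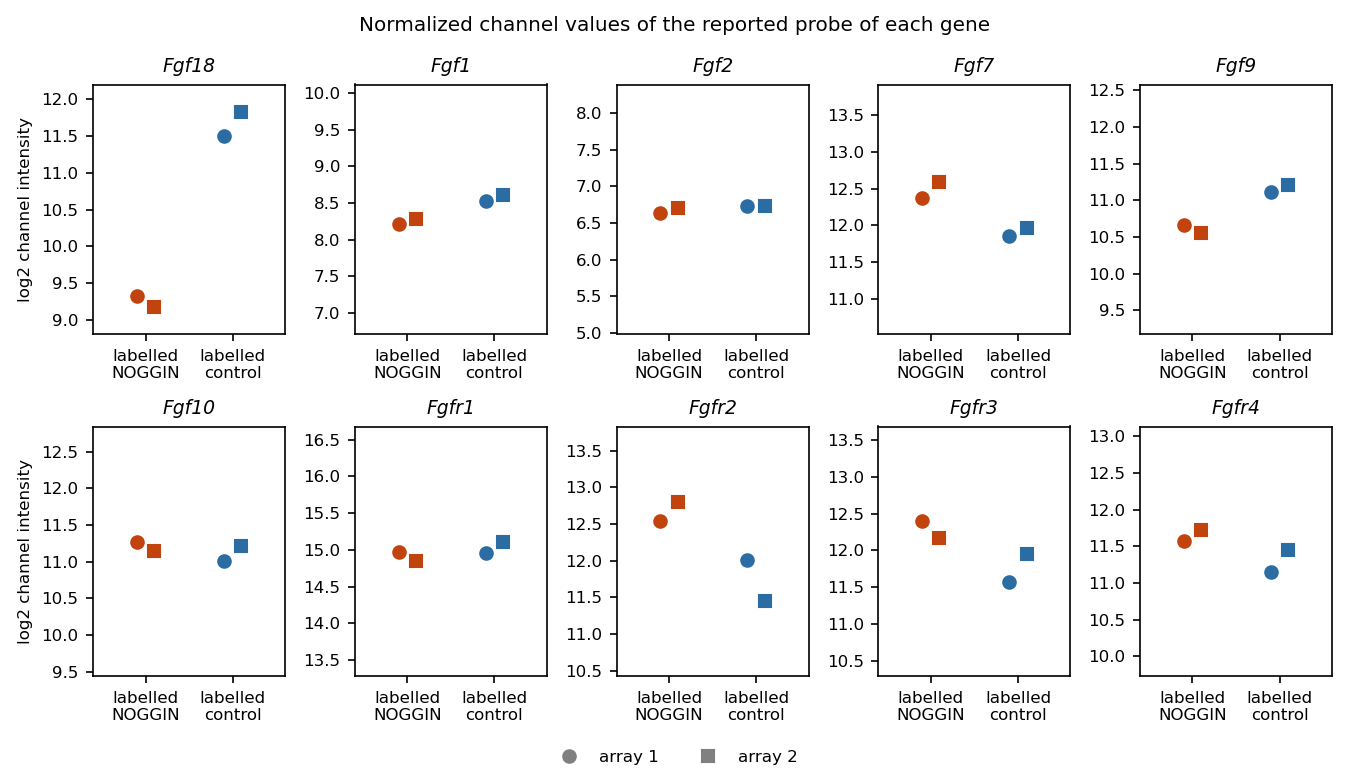
Normalized log2 channel intensity of the brightest probe of each FGF gene in the channels labelled NOGGIN (left, orange) and control (right, blue); circles are array 1 and squares array 2, and every panel spans the same number of log2 units. Fgf18 has a gap of more than 2 units between the groups, while the points of Fgf2, Fgf10 and Fgfr1 lie close together.

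Among the other ligands, Fgf7 and Fgf9 had the larger differences, in opposite directions. Fgf7, a mesenchymal ligand of the epithelial form of FGFR2, had log2 channel intensities of 12.37 and 12.59 in the channels labelled NOGGIN, against 11.85 and 11.96 in the channels labelled control. Both NOGGIN values were above both control values. The log2 ratios were 0.52 and 0.63 (mean 0.57 ± 0.07, SD, n = 2 arrays), a level 1.49-fold higher in the channels labelled NOGGIN. All 7 spots that were not flagged were above 0. Its single probe lies at chr2:125916134-125916193 (mm9, plus strand). Array 1 fell short of the 1.5-fold line, which is 0.58 on the log2 scale. Array 2 passed it, but not with outlier spots kept (0.51), processed signals (0.52), the authors' deposited values (0.47) or median centring (0.17). It still passed without background correction and with the median of spots.

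Fgf9 encodes a ligand that signals to mesenchyme in lung and kidney. Its log2 channel intensities were 10.66 and 10.55 in the channels labelled NOGGIN, against 11.12 and 11.20 in the channels labelled control. Both NOGGIN values were below both control values. The log2 ratios were -0.46 and -0.65 (mean -0.55 ± 0.14, SD, n = 2 arrays), a level 1.47-fold lower in the channels labelled NOGGIN, and all 8 spots were below 0. The probe lies at chr14:58728897-58728956 (mm9, plus strand). Fgf9 thus lay on the same side as Fgf18 with a much smaller difference, and array 2 but not array 1 passed 1.5-fold.

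Fgf10, the other mesenchymal ligand of the epithelial FGFR2 form, is needed for branching of lung and kidney epithelia. Its channel values were 11.27 and 11.14 in the channels labelled NOGGIN, against 11.01 and 11.21 in the channels labelled control. The groups overlapped, and the log2 ratios of 0.26 and -0.07 had opposite signs (mean 0.10 ± 0.23, SD, n = 2 arrays). With 5 of 8 spots above 0, no difference of Fgf10 was detectable with these arrays. Its probe lies at chr13:119580365-119580424 (mm9, plus strand).

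Fgf1 and Fgf2 encode ligands that lack a classical secretion signal. Fgf1 had channel values of 8.21 and 8.28 in the channels labelled NOGGIN, against 8.52 and 8.61 in the channels labelled control. Its log2 ratios were -0.31 and -0.34 (mean -0.32 ± 0.02, SD, n = 2 arrays), a level 1.25-fold lower in the channels labelled NOGGIN. All 8 spots were below 0, and 87.1% of all features had a mean log2 ratio nearer to 0.

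Fgf2 was at the edge of detection. Its channel values were 6.64 and 6.70 in the channels labelled NOGGIN, against 6.74 and 6.73 in the channels labelled control. Its spots well above background numbered 4 and 2 of 4 in the channels labelled NOGGIN (array 1 and array 2), against 1 and 4 of 4 in the channels labelled control. The log2 ratios of -0.10 and -0.03 (mean -0.07 ± 0.05, SD, n = 2 arrays) were smaller than the spread of its spots, which had an SD of 0.15 on array 1 and 0.10 on array 2. Fgf1 and Fgf2 each had a further probe that was not well above background. Over the 6 ligands the median of the mean log2 ratios was -0.20, beside -0.01 over all features, and this includes Fgf18.

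By their mean log2 ratios the receptors other than Fgfr1 lay on the side opposite to Fgf18, although Fgfr3 and Fgfr4 had opposite signs on the 2 arrays when the arrays were centred on their medians. Fgfr2 encodes the receptor whose epithelial splice form binds FGF7 and FGF10, and it had the largest receptor difference by the brightest probe. Its log2 channel intensities were 12.54 and 12.80 in the channels labelled NOGGIN, against 12.02 and 11.46 in the channels labelled control. The groups did not overlap. The log2 ratios were 0.53 and 1.35 (mean 0.94 ± 0.58, SD, n = 2 arrays), a level 1.92-fold higher in the channels labelled NOGGIN. The arrays thus differed in size, and array 1 fell short of 1.5-fold.

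Both Fgfr2 probes gave this difference between the arrays. The other probe had log2 ratios of 0.50 and 1.07, and all 16 spots of the 2 probes were above 0, from 0.15 to 1.48. The probes lie on the minus strand at chr7:137307473-137307532 and chr7:137307455-137307514 (mm9) and have 42 bases in common, so they are nearly a single measurement. The brighter probe is printed with the shared bases in capitals, to show how far the 2 readings of Fgfr2 depend on one stretch of transcript.
Fgfr2 probe: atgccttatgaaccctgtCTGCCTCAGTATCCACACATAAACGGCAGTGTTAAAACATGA

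Fgfr3 encodes a receptor expressed in many epithelia and in growth plate cartilage. Its brightest probe had log2 channel intensities of 12.40 and 12.16 in the channels labelled NOGGIN, against 11.58 and 11.95 in the channels labelled control. The groups did not overlap. The log2 ratios were 0.83 and 0.21 (mean 0.52 ± 0.43, SD, n = 2 arrays), a level 1.43-fold higher in the channels labelled NOGGIN, and here array 1 had the larger difference.

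A different Fgfr3 probe gave a larger difference with the arrays in the other order. It is dimmer, with channel values of 9.59 and 9.78 in the channels labelled NOGGIN, against 8.94 and 8.41 in the channels labelled control. Its log2 ratios were 0.65 and 1.37 (mean 1.01 ± 0.51, SD, n = 2 arrays), so by this probe alone Fgfr3 passed 1.5-fold on both arrays. The brightest probe lies at chr5:34079649-34079708 and the dimmer one spans chr5:34077856-34078090 (mm9, plus strand), so they share no bases. The last probe, at chr5:34074696-34074755, was not well above background in any channel. Of the 16 spots of both kept probes, 15 were above 0.

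Fgfr4 encodes the receptor that binds endocrine FGFs in liver and is expressed in developing muscle. Its channel values were 11.58 and 11.72 in the channels labelled NOGGIN, against 11.15 and 11.45 in the channels labelled control. The log2 ratios were 0.43 and 0.27 (mean 0.35 ± 0.11, SD, n = 2 arrays), a level 1.27-fold higher in the channels labelled NOGGIN. The other probe gave 0.30 and 0.01 (mean 0.15), so its array 2 value was near 0. The probes lie at chr13:55270033-55270092 and chr13:55269212-55269271 (mm9, plus strand), and 12 of 15 spots were above 0.

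Fgfr1, the receptor most associated with mesenchyme, showed no stable difference. Its brightest probe had channel values of 14.96 and 14.85 in the channels labelled NOGGIN, against 14.95 and 15.11 in the channels labelled control. The groups overlapped, and the log2 ratios were 0.01 and -0.26 (mean -0.12 ± 0.19, SD, n = 2 arrays). The other probes had log2 ratios of -0.17 and 0.35, and of -0.08 and 0.27. Their signs were opposite to those of the brightest probe on both arrays, and 10 of 24 spots were above 0. The probes lie at chr8:26685072-26685131, chr8:26685820-26685879 and chr8:26684061-26684120 (mm9, plus strand). Over the 4 receptors the median of the mean log2 ratios was 0.43. Fgf18 chose the set, and over the 5 ligands without it the median was -0.07.

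The 4 receptors are related in sequence, so a probe of one could also bind transcript of another. The probes of Fgfr1, Fgfr3 and Fgfr4 from corresponding stretches are therefore printed; that of Fgfr1 is in capitals, and in the others a capital marks a base identical to the Fgfr1 probe in the best alignment without gaps. The Fgfr3 probe is the dimmer of the kept ones, at 19 identical bases of 29 aligned to Fgfr1 (65.5%), and the Fgfr4 probe is the one at chr13:55269212-55269271, at 35 of 58 (60.3%). None of these is the brightest probe of its gene, on which the reported ratios rest, and no identity is given for the brightest probes. Binding to a related transcript was not tested.
Fgfr1 probe: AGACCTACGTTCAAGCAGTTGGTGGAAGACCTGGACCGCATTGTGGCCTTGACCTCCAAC
Fgfr3 probe: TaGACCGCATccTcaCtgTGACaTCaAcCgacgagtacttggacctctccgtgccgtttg
Fgfr4 probe: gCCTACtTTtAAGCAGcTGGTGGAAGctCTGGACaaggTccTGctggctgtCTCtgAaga

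**Figure D2:**
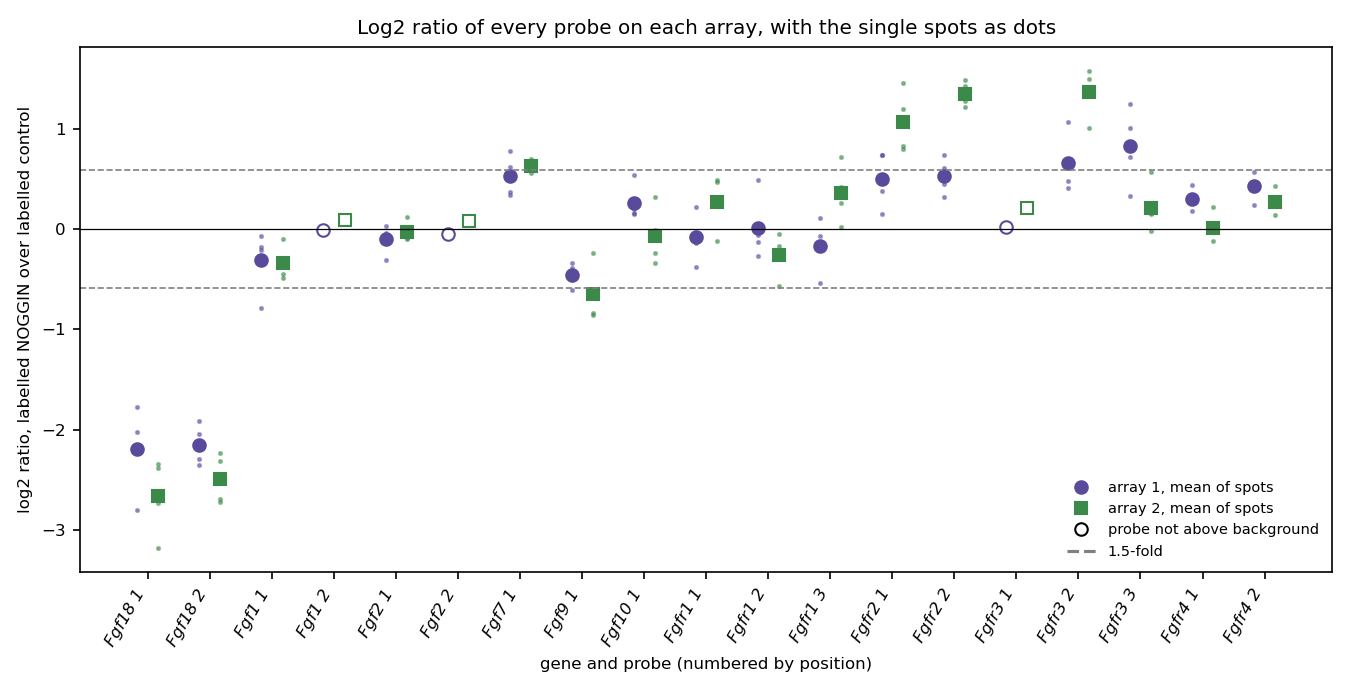
Log2 ratio, labelled NOGGIN over labelled control, for each of the 19 FGF probes (circles array 1, squares array 2, small dots single spots, open symbols probes not well above background); dashed lines mark 1.5-fold. Both Fgf18 probes lie below -2 on both arrays, both Fgfr2 probes lie above 0, and the 3 Fgfr1 probes scatter around 0.

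On the single arrays, 2 of the 10 genes passed 1.5-fold on array 1 (Fgf18 and Fgfr3), where 4.31% of all features did, and 4 passed on array 2 (Fgf18, Fgf7, Fgf9 and Fgfr2), where 11.8% did. Fgf18 was the 1 gene common to both. The order of the mean log2 ratios, from low to high, was Fgf18, Fgf9, Fgf1, Fgfr1, Fgf2, Fgf10, Fgfr4, Fgfr3, Fgf7 and Fgfr2. Fgf18 stood apart from its neighbour Fgf9 by more than either SD. Fgf9 and Fgf1, Fgf1 and Fgfr1, and Fgf10 and Fgfr4 also differed by more than the larger SD. Between Fgfr4, Fgfr3, Fgf7 and Fgfr2, neighbours differed by less than the larger of their SDs, and likewise between Fgfr1, Fgf2 and Fgf10.

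**Figure D3:**
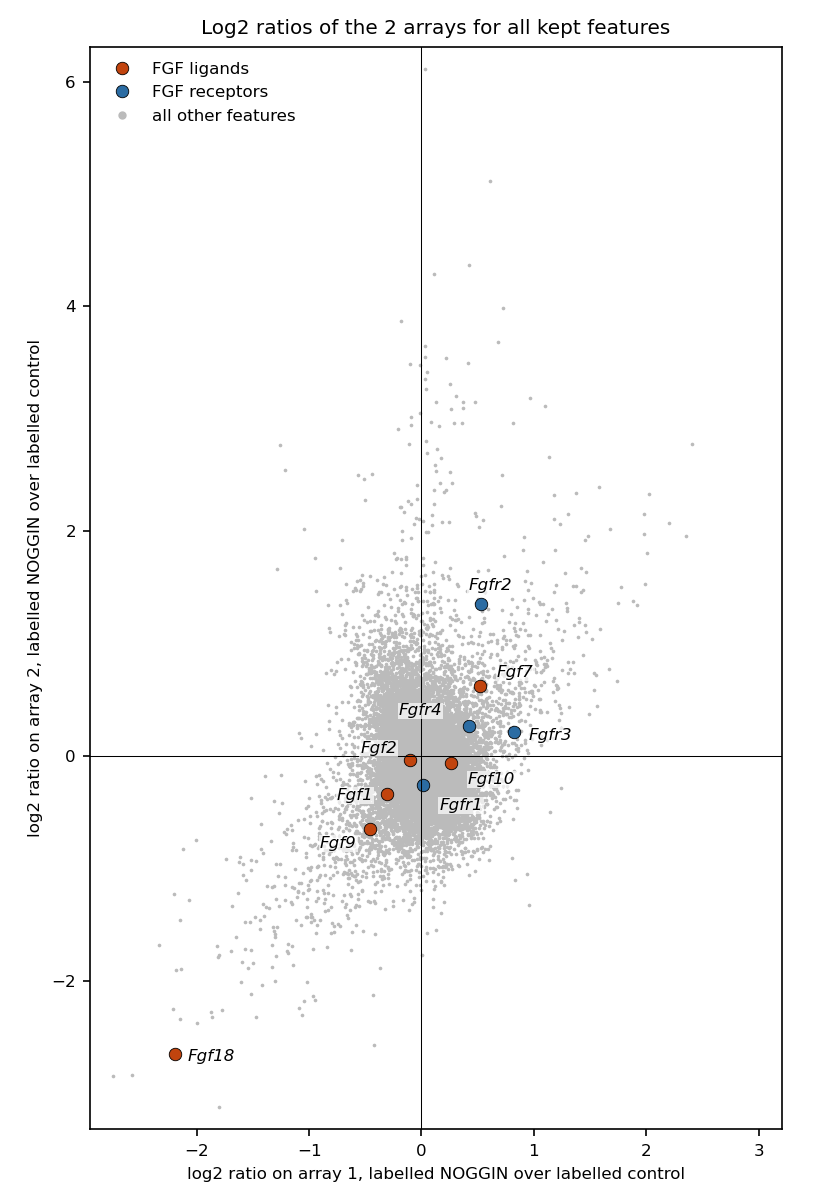
Log2 ratio on array 1 (x axis) against array 2 (y axis) for all 22316 kept features (grey), with FGF ligands in orange and FGF receptors in blue. Fgf18 lies at the lower left edge of all features, and the 9 other FGF genes lie within or near the central cloud.

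The normalization matters for the smaller differences. With each array centred on its median in place of an intensity-dependent loess curve, Fgf18 had log2 ratios of -1.81 and -3.08 and kept its direction on both arrays. Fgfr2 came to 0.91 and 0.89 and then passed 1.5-fold on both. Fgfr3 came to 1.22 and -0.24 and Fgfr4 to 0.83 and -0.19. Fgf7 came to 0.91 and 0.17, Fgf9 to -0.07 and -1.09 and Fgf1 to -0.11 and -0.60, with their signs kept. Fgf2 came to -0.29 and 0.14, so its array 2 value changed sign. Fgf10 came to 0.66 and -0.52 and Fgfr1 to 0.12 and -0.43, with opposite signs as before. With the mean over a gene's probes in place of the brightest, Fgfr3 had log2 ratios of 0.74 and 0.79 and passed 1.5-fold on both arrays, and the mean of Fgfr1 changed sign, to 0.02. Over the settings that used both arrays, the mean log2 ratio of Fgf18 ranged from -2.65 to -2.32 and that of Fgfr2 from 0.84 to 0.94.

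**Figure D4:**
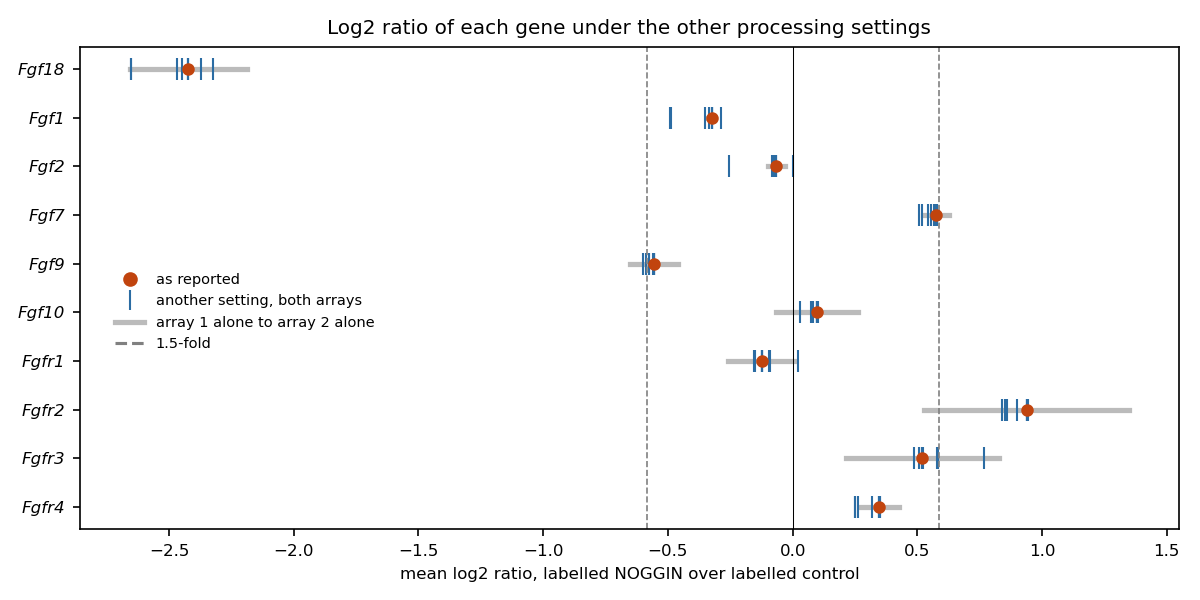
Mean log2 ratio of each FGF gene as reported (orange) and under the other processing settings (blue ticks). Grey shows the range between the single arrays in the reported processing. Of the values drawn, those of Fgf18 stay between -2.66 and -2.19, those of Fgfr2, Fgfr3, Fgfr4 and Fgf7 stay above 0, and those of Fgf10 and Fgfr1 reach both sides of 0. Single arrays under median centring are not drawn: there Fgf18 came to -1.81 and -3.08, and Fgfr3 and Fgfr4 were below 0 on array 2.

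The promoter of Fgf18 was compared with known motif letters, since the 250 bases before a gene's start are where SMAD factors, the transcription factors of BMP signalling, may bind. The RefSeq sequence (GRCm38.p6, minus strand, chr11:33147401-33147650) is printed with the letters CAGAC or their reverse complement GTCTG, the SMAD box, in capitals; they lie at -190 and -15 from the start.
Fgf18 promoter: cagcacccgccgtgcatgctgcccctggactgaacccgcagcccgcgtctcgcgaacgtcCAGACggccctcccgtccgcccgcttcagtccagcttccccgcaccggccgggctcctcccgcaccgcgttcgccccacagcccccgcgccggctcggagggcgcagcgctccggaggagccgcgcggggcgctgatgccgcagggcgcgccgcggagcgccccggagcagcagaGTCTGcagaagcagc

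The letters of the SMAD box are common. They occurred on either strand in 49.6% of 32851 RefSeq windows of 300 bases, and in 4 of the 9 windows found for 8 of the FGF genes, those of Fgf2, Fgf7, Fgf9 and Fgf18. The palindrome GGCGCC, a GC-rich SMAD element, was in 11.9% of all windows and in 3 of the 9, those of Fgf2 and both windows of Fgfr3. The letters CTTTGAT, bound by TCF and LEF factors of WNT signalling, searched on both strands, were in 3.73% of all windows and in 0 of the 9. The Fgf18 window was 78.7% G and C, more than 98.4% of all windows, whose median was 52.7%. A match of letters is no evidence of binding.

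Of 72 other genes of FGF signalling in 6 lists, 68 were kept. By the fold rule 1 of them was higher, where 0.941% of all features were, 3 were lower, where 1.25% were, and 64 passed in neither direction. Their median of mean log2 ratios was -0.07, against -0.01 over all features. By limma with Benjamini-Hochberg adjustment over all 22316 features, 0 of the 68 passed an adjusted p of 0.05, as did 0% of all features. At an unadjusted p of 0.05, 10 of the 68 passed, 1 higher and 9 lower, where 6.04% of all features did. Of all 22316 features, 598 passed as higher and 749 as lower. The lists were chosen with earlier results of these data known, so nothing is read from this count. The lowest adjusted p among them was 0.125. Of the 68, 28 were negative and 10 positive on both arrays; of all features 23.3% were negative and 20.4% positive on both.

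Among 10 kept ligands outside the set, 1 was lower. Fgf21, an endocrine regulator of metabolism, had channel values of 6.96 and 6.95 in the channels labelled NOGGIN, against 7.99 and 7.86 in the channels labelled control. The groups did not overlap, and the mean log2 ratio was -0.97 ± 0.09 (SD, n = 2 arrays; limma adjusted p = 0.178). Fgf5, a ligand known for its role in the hair cycle, had log2 ratios of -0.58 and -1.10, just short of 1.5-fold on array 1. The median over these ligands was -0.09. None of the 4 intracellular FGFs, which act on ion channels and not on receptors, passed the fold rule; the 2 farthest from 0 were Fgf13 at a mean of -0.29 and Fgf14 at 0.28, and another Fgf13 probe gave -0.01.

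Of 7 kept co-receptors and binding proteins, 1 was lower. Fgfbp1 encodes a secreted carrier that releases FGFs from the matrix. It had channel values of 8.25 and 8.57 in the channels labelled NOGGIN, against 9.35 and 9.78 in the channels labelled control. Both NOGGIN values lay below both control values, and the log2 ratios of -1.10 and -1.21 were close (mean -1.15 ± 0.07, SD, n = 2 arrays; limma adjusted p = 0.125). Kl, which encodes the co-receptor of FGF23, had a mean of -0.51. The median over the list was -0.05.

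Of 22 kept genes for heparan sulfate and the proteins that carry it, 1 was higher. Hs3st1, which encodes a 3-O-sulfotransferase that modifies heparan sulfate chains, had channel values of 9.80 and 9.53 in the channels labelled NOGGIN, against 8.45 and 8.79 in the channels labelled control. Both NOGGIN values lay above both control values, and the mean log2 ratio was 1.05 ± 0.44 (SD, n = 2 arrays; limma adjusted p = 0.234). Sdc2, a syndecan that carries such chains, had log2 ratios of -0.39 and -0.88. The list median was -0.23, against -0.01 over all features; it was -0.02 on array 1 and -0.41 on array 2.

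None of the 10 receptor adaptors passed the fold rule. Cbl, a ubiquitin ligase that removes active receptors, had a mean log2 ratio of -0.30, and the adaptor Shc1 had 0.17; the list median lay at 0.

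Of 15 targets and feedback inhibitors of FGF signalling, 1 was lower. Il17rd, also called Sef, a membrane protein that dampens FGF signalling, had channel values of 12.26 and 11.93 in the channels labelled NOGGIN, against 12.86 and 12.72 in the channels labelled control. The groups did not overlap, and the log2 ratios of -0.60 and -0.79 passed the 1.5-fold line narrowly on array 1 (mean -0.69 ± 0.13, SD, n = 2 arrays; limma adjusted p = 0.343). Dusp6, a phosphatase that inactivates ERK and is a standard readout of the pathway, had log2 ratios of -0.43 and -0.38 (mean -0.41 ± 0.04, SD, n = 2 arrays; limma adjusted p = 0.819). Of the 15, 7 were negative on both arrays, 2 were positive on both and 6 had opposite signs. Of all features, 23.3% were negative and 20.4% positive on both, and 12553 of 22316 had opposite signs. The median was -0.05.

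**Figure D5:**
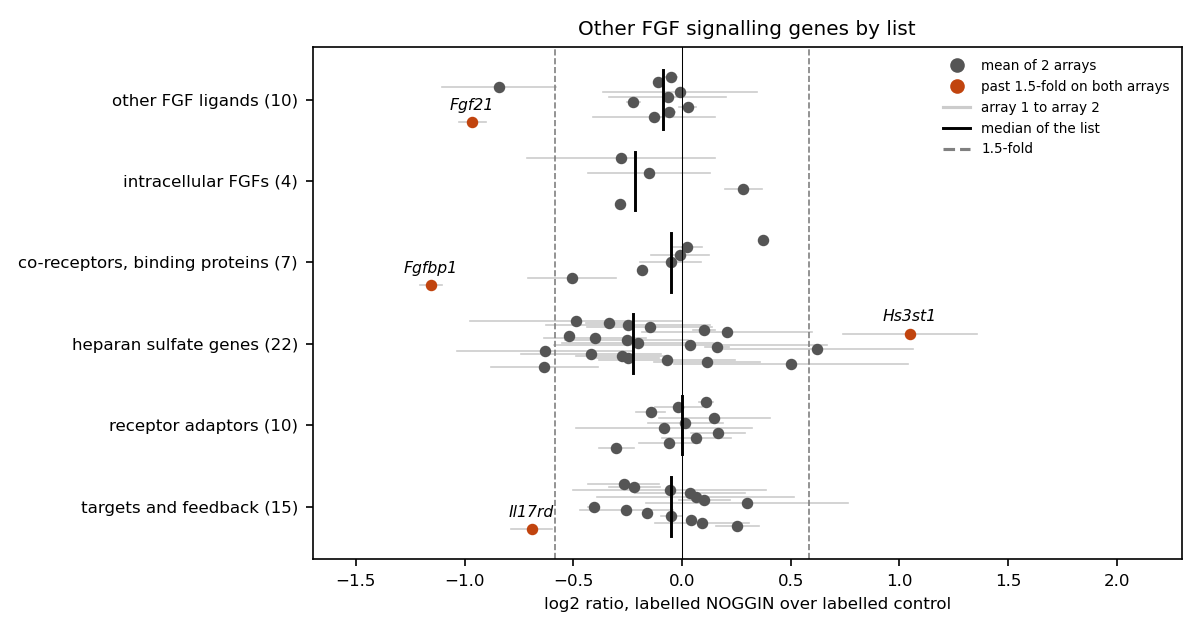
Mean log2 ratio of the 68 kept genes of FGF signalling outside the set, by list with the number of genes, with a grey line between the values of the arrays and a black bar at the list's median; dashed lines mark 1.5-fold. Fgf21, Fgfbp1 and Il17rd lie below -0.58 and Hs3st1 above 0.58 on both arrays, and all list medians lie between -0.23 and 0.

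The 5 features nearest to Fgf18, by the distance between their log2 ratios over the 2 arrays, were Prmt8, Cdh3, Irs4, Gdf6 and Bmp2. Prmt8, which encodes an arginine methyltransferase, had log2 ratios of -2.15 and -2.34 (distance 0.320), and Cdh3, which encodes P-cadherin, had -1.99 and -2.37 (distance 0.344). Irs4, which encodes an insulin receptor substrate, had -2.21 on array 1. The BMP family ligands Gdf6 and Bmp2 had -2.57 and -2.84 (distance 0.428) and -1.86 and -2.32 (distance 0.465). In the channel labelled NOGGIN on array 2, 2 of 4 Prmt8 spots and 0 of 4 Irs4 spots were well above background. The array 2 ratio of Irs4 therefore has only a bound, so its place in this order is not fixed, and another Irs4 probe had a mean of 0.02. A distance over 2 arrays describes these arrays only.

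Markers of both tissues of the ureter were present. All 14 urothelium markers were well above background, with a median log2 ratio of 0.04. Their summed linear intensity was 341928 and 306291 in the channels labelled NOGGIN, against 279627 and 317206 in the channels labelled control, so the groups overlapped. All 11 markers of ureteric mesenchyme and smooth muscle were kept, with a median of -0.08. By the fold rule 3 were higher (Tbx18, Sox9 and Myocd) and 4 lower (Bmp4, Tagln, Cnn1 and Actg2), where 0.941% and 1.25% of all features were. Their sum was 269278 and 297283 in the channels labelled NOGGIN, against 430051 and 395064 in the channels labelled control. Most of that control sum came from Acta2, Bmp4 and Tagln, and the sum of the 8 other markers was higher, at 121034 and 104029 in the channels labelled NOGGIN, against 95200 and 98475 in the channels labelled control; this split was chosen after the values were seen. The sum of the 7 fibroblast markers was 604625 and 626482 in the channels labelled NOGGIN, against 850140 and 825949 in the channels labelled control, with a median of -0.30. The contractile genes of smooth muscle, Acta2, Tagln, Cnn1 and Actg2, were negative on both arrays, with Acta2 at -1.39 and -0.18. Cnn1 and Actg2 are among the 8 other markers, so the higher sum of those does not hold for each gene. The 11 mesenchymal markers thus had no direction common to all. The fibroblast sum lay on the side of Fgf18. The part of these markers in the difference of Fgf18 was not tested. In whole ureters fewer cells of a type and less RNA per cell cannot be told apart.

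Markers of other cells were also kept: all 8 of nephron progenitors (2 lower, median -0.08), all 5 of bud tips (1 lower, median 0.06; the background for lower is again 1.25%), all 5 of endothelium (median 0.17), all 5 of macrophages (median -0.24), 3 of 4 of red blood cells (median 0.03) and all 3 of neural crest (median 0.03). The nephron progenitor marker Pax2 was well above background on only 1 array in the channels labelled NOGGIN and on only 1 in those labelled control. Of 4 skeletal muscle markers, Myod1 was not kept, Myog and Myh3 were lower, and Actc1 had log2 ratios of 0.82 and 0.56. Their median was -1.53, while their summed intensity was 21406 and 25270 in the channels labelled NOGGIN, against 13704 and 20276 in the channels labelled control. Most of that sum came from Actc1 alone. Its log2 channel intensities were 14.34 and 14.57 in the channels labelled NOGGIN, against 13.53 and 14.01 in the channels labelled control. The share of probes well above background was 76.9% and 66.4% in the channels labelled NOGGIN, against 65.3% and 76.4% in the channels labelled control, with the higher share in the green dye each time. The 2 arrays were little alike: their log2 ratios had a Pearson correlation of 0.179, and 12553 of 22316 features had opposite signs. The number of arrays limits the precision of every value, and separate litters or pools are not stated for the 2 pairs, so p-values measure only the spread between these samples, which may be technical.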

How the data were processed

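Each of 2 two-colour arrays on 1 slide, read in 1 scan, was a replicate. Per the file headers, the deposited spot intensity values came from Agilent Feature Extraction (10.7.3.1, per the submitters' processing notes) on a custom design, with probe positions in mm9. Mean and background signals were not normalized; for the processed signals the scanner software had removed background and balanced the dyes, by the header. A deposited log10 ratio of red to green, per the file headers, was used for the correlation given next and not for the log2 ratios reported. The authors' deposited table holds a signed score per probe, which by its values is a linear fold; its correlation with red over green was 0.838 (array 1) and -0.884 (array 2), and how it was normalized is not stated.

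Mean signals were corrected by normexp (offset 50) and loess in limma 3.58.1 under R 4.3.3, control spots having weight 0, to give a log2 ratio per spot from the deposited intensities; channel values were further scaled by Aquantile. Control spots and outlier spots (3.36% and 3.09%) were left out; no spot was saturated. Of 152 spots of the FGF probes, 4 were left out as outliers. Spots were averaged, probes kept if on both arrays a channel had more than 50% of spots well above background, and the brightest kept probe used per gene. Names were updated through RefSeq accessions (28328 probes, 71.8%, matched). Exon and UTR annotation of mm9 and protein sequences were not used here.

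limma's lmFit and eBayes were fitted on all 22316 features (1 residual and 4.34 prior degrees of freedom), two-sided, with Benjamini-Hochberg adjustment, and tested on simulated data. A gene passed the fold rule at 1.5-fold in 1 direction on both arrays. Taking each ratio within an array pairs the samples, as the array was shared. Genes named were the 10 FGF genes; of the lists, those past the fold rule or adjusted p and the 2 of each list farthest from 0; the 5 features nearest to Fgf18; and Id1. The marker genes Tbx18, Sox9, Myocd, Acta2, Bmp4, Tagln, Cnn1, Actg2, Pax2, Myod1, Myog, Myh3 and Actc1 were named after their values were seen. The FGF genes and the lists were chosen with earlier results of these data known. Lists of bud tip markers and of FGF targets share Etv4 and Etv5. Figures were drawn with matplotlib 3.10.9.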

Additional observations from a re-analysis of the deposited data

How the results depend on the processing

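Fgf18 kept its direction and stayed past 1.5-fold on both arrays under every alternative run with both arrays. Of 89 alternative values of the 10 FGF genes from both arrays, 33 were identical to the reported ones, 50 moved by less than the SD between arrays and 6 by more (4 of Fgf1, from -0.49 to -0.29, and 2 of Fgf2, at -0.25 and 0.00). The identical values came from settings that left the spots and probes of those genes unchanged, so they show no robustness. A mean over both arrays can also hide opposite shifts. With median centring Fgf9 went from -0.46 and -0.65 to -0.07 and -1.09, while its mean moved by less than the SD. The 0.00 of Fgf2 came from the authors' deposited values, which list its reported probe at 1 on both arrays. The FGF probes not kept are listed at 1 there too, so this may not be a measured ratio. Fgf2 gave no value where both channels had to be above background. FGF genes past 1.5-fold numbered 2, in place of 1, with median centring (Fgfr2 added) and also with the mean of a gene's probes (Fgfr3 added), and 2 to 4 on single arrays. The 4 other FGF signalling genes past 1.5-fold became 1 at 2-fold and 7 to 16 on single arrays. All features past 1.5-fold numbered 488, and 854 with processed signals, 149 at 2-fold and 961 to 2631 on single arrays.

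The count of features past an adjusted p of 0.05 was 0 in the fit reported (lowest adjusted p 0.0735). It was 35 without background correction, 97 with both channels above background, 114 with median centring, 23 with outlier spots kept, 141 with eBayes's trend and robust options and 45 with no replicate block, where channels were fitted without the array pairing. It stayed at 0 with processed signals, no filter on dim probes, the median of spots, the mean of a gene's probes and the authors' deposited values. The cause was not tested. A single array gives no limma test. Signal over background limits Fgf2 and the 3 FGF probes not kept.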
